A study of Mus musculus with 14 samples.

Results

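The genes described here are 47 components of heterotrimeric G protein signaling in the mouse aortic valve, chosen by name as the machinery that lies downstream of angiotensin and serotonin receptors. They comprise 13 G alpha subunits, 5 G beta subunits, 4 beta isoforms of phospholipase C, 9 adenylyl cyclases, 12 regulators of G protein signaling (RGS), 2 G protein-coupled receptor kinases (GRK) and 2 beta-arrestins. All 47 were found among the 56941 genes of the count table, and all 47 passed the filter for testing, a mean count over the 14 libraries of 10 or more, which left 19145 genes. Aortic valve leaflets of 14 male wild type C57BL/6J mice, 8 weeks old at the start, were sequenced in bulk with 1 library per mouse. Every mouse, controls included, was fed a Western diet. The 4 Ctrl mice were labelled as untreated. The 2 LY mice received LY272015, which blocks the serotonin receptor HTR2B, by intraperitoneal injection at 3 mg/kg. The 4 AngII mice were infused with angiotensin II from osmotic pumps at 1000 ng/kg/min for 28 days, and the 4 AngII+LY mice received the infusion and LY272015. By the design text, both AngII groups lived for 48 hours after the pumps were taken out, whereas the study's methods state this of some mice. Whether each AngII valve was taken during or after the infusion is thus not known here. The dosing interval of LY272015 is also given in different ways in these sources. The compound number in the labels of 1 LY mouse and 3 AngII+LY mice is another than LY272015, and these mice were grouped by their titles.

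G protein-coupled receptors pass their signal to heterotrimers of an alpha, a beta and a gamma subunit. Gq subunits activate phospholipase C beta, which releases inositol trisphosphate and diacylglycerol and so raises calcium and protein kinase C activity. G12 subunits act on RhoA through guanine nucleotide exchange factors, Gs subunits stimulate adenylyl cyclases to form cyclic AMP, and Gi subunits inhibit them. RGS proteins speed up GTP hydrolysis on the alpha subunit and end the signal, while GRKs phosphorylate the active receptor and beta-arrestins then uncouple and internalize it. The angiotensin receptor AT1 and the serotonin receptor HTR2B both couple to Gq.

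Library totals ran from 20990655 counts in AngII 4 to 73128220 in AngII 2. Values below are counts normalized by the trimmed mean of M-values (TMM) and scaled to the mean effective library size. The defining markers of valve interstitial cells (8 of 8) and of valve endothelial cells (8 of 8) had counts in every library, and so did all 10 cardiomyocyte markers and all 7 smooth muscle markers. Several libraries stood apart. Mitochondrial genes took 24.66% of the counts in AngII 3, 25.5% in AngII 4 and 20.18% in AngII+LY 1, against 4.0 to 7.52% in Ctrl mice. The summed smooth muscle markers were highest in Ctrl 1 and the summed platelet markers were highest in AngII 4. The atrial heart muscle genes Myl7 and Nppa, singled out after their values were seen, had 208600 and 21710 normalized counts in Ctrl 2 and 155900 and 141600 in AngII+LY 4, against at most 35810 and 5853 in the other mice. In bulk tissue, fewer cells of a type and less RNA per cell cannot be told apart.

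The levels of the 47 genes differed widely when measured as normalized CPM per kilobase of exon, the unit of every level in this paragraph. The mean level over the 14 mice was highest for Gnai2, a Gi subunit, at 131, and next came Gnas, the Gs alpha subunit, at 126. The order of these 2 depends on the length used. Gnas had a mean count of 83710 over 12003 bases of merged exons, and Gnai2 one of 32240 over 4352 bases. Gna11 at 31.6 led the Gq subunits and stood above Gnaq at 9.94. Gna12 at 29.2 was the more abundant G12 subunit, and Gnb1 at 29.8 and Gnb2 at 29.1 were the leading beta subunits. Of the effectors, Adcy4 at 28.2 led the adenylyl cyclases and Plcb3 at 8.16 the phospholipases. Grk6 was at 8.22 and Arrb1, beta-arrestin 1, at 7.36. Rgs18 had the highest mean of the RGS genes, 38.7, but this rested on AngII 4. In Ctrl mice Rgs18 was at 6.16 ± 3.93 (SD, n = 4), below Rgs10 at 18.4 ± 5.07 and Rgs5 at 17.6 ± 4.22. Within the Ctrl group Gnai2 at 154 ± 12.2 and Gnas at 135 ± 8.34 lay above all other members. Gna11 at 36.2 ± 3.53, Gna12 at 36.3 ± 6.73, Adcy4 at 34.9 ± 16.3, Gnai3 at 34.8 ± 9.13, Gnb2 at 32.8 ± 2.61 and Gnb1 at 30.3 ± 2.56 followed, and their order was not tested. The lowest were the brain-type cyclases Adcy1 at 0.0521 and Adcy8 at 0.0347, and Rgs9, the RGS protein of photoreceptors and striatum, at 0.0285. Adcy8 had counts in 4 of the 14 libraries and Rgs9 in 7.

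**Figure D1:**
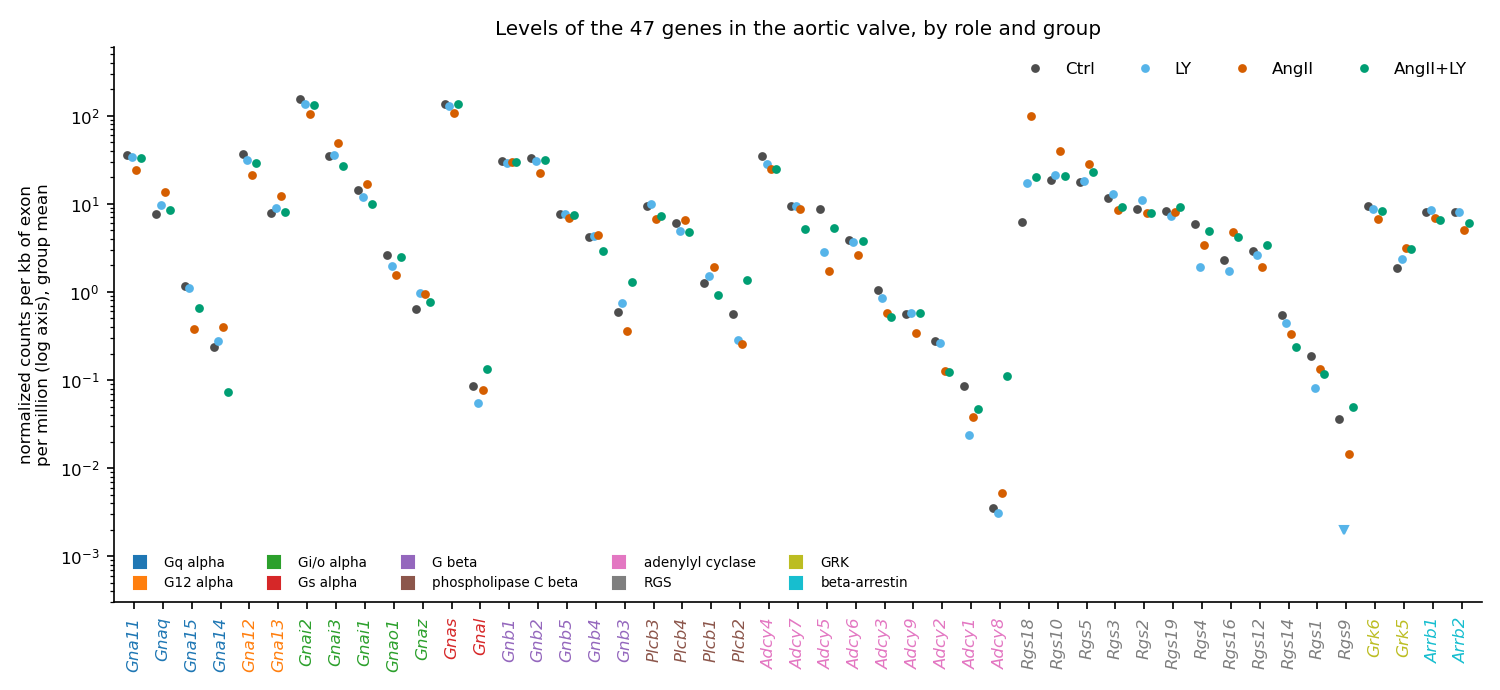
Mean level of each of the 47 genes in the 4 groups, as normalized CPM per kilobase of exon on a log axis, with genes ordered by role (colour of the name) and level; points are group means and the triangle marks Rgs9, which had no counts in LY mice. Gnai2 and Gnas stood above all others, and the AngII point of Rgs18 stood far above its Ctrl point.

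The first comparison asks how the AngII infusion altered these genes. In AngII against Ctrl mice, 15 of the 47 genes had positive and 32 negative log2 fold changes, with a median log2 fold change of -0.43 against -0.06 over all genes tested. To be called, a gene needed an absolute log2 fold change above 0.5 and a p under 0.05 after Benjamini-Hochberg adjustment. By edgeR's quasi-likelihood test none of the 47 was called, and neither was any other gene (0.0% of 19145 genes). The smallest adjusted p among the 47 was 0.0583, for Rgs18. At an unadjusted p under 0.05 there were 13 of 47 (27.7%), and the background over all genes was 25.2%. Of these, 5 were higher (background 13.4%) and 8 lower (background 11.7%). DESeq2, the tool that the study used, called 9 of the 41 genes to which it gave an adjusted p (22.0%, background 19.2%), 4 higher and 5 lower. The 4 AngII mice did not overlap with the 4 Ctrl mice for 7 of the 47 genes (14.9%, background 15.0%). These shares lay near those of all genes, with the widest gap for the 8 lower ones, 17.0% against 11.7%. Negative log2 fold changes made up 68.1% of the 47 and 52.7% of all genes. After the GC correction described with the GC content they still made up 66.0% and 50.8%, with medians of -0.09 and -0.01. With that correction, 3 of the 47 and 971 of the 19145 genes were lower at an edgeR unadjusted p under 0.05. Without AngII 4 and with no GC correction, the number at an unadjusted p under 0.05 was 8, where the background was 16.6%. Without the 3 libraries over 20% mitochondrial counts it was 5, where the background was 9.63%, namely Gnaq, Gna13 and Rgs18 with positive and Gna12 and Gna15 with negative log2 fold changes. The DESeq2 calls among the 47 went from 9, with 2663 over all genes, to 2 without AngII 3 (1435 over all genes), 3 without Ctrl 2 (1246), 4 without AngII 4 (925), 4 without Ctrl 3 (1338), 5 without Ctrl 1 (1479) and 14 without AngII 1 (3935).

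The second comparison asks how AngII+LY differed from AngII alone. It shares the AngII mice with the first, so that high or low AngII values enter both comparisons with opposite sign. Of the 47 genes, 25 log2 fold changes were positive and 22 negative, with a median log2 fold change of 0.09 against -0.02 over all genes. No gene was called by edgeR (0.0% of all genes), and the smallest adjusted p among the 47 was 0.0816, for Gnai3. At an unadjusted p under 0.05 there were 8 of 47 (17.0%, background 22.5%), of which 2 were higher (background 10.1%) and 6 lower (background 12.4%). DESeq2 called 4 of 41 (9.76%, background 15.4%). The groups did not overlap for 6 genes (12.8%, background 11.1%). The number at an unadjusted p under 0.05 was 13 without AngII 1 (background 25.4%) or without AngII+LY 1 (background 24.4%) and 5 without AngII+LY 4 (background 18.3%). The DESeq2 calls among the 47 went from 4, with 2082 over all genes, to 7 without AngII 1 (2791 over all genes), 2 without AngII+LY 3 (1010), 1 without AngII 4 (967) and 1 without AngII+LY 4 (1128).

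Markers of the cells in the valve also differed between these groups. The sum of the 8 valve interstitial markers, of which Dcn was the most abundant, was 798951, 867690, 779335 and 847164 in AngII and 514392, 465113, 485210 and 284820 in AngII+LY mice, without overlap. It was 876482, 463489, 506929 and 872330 in Ctrl and 575077 and 947518 in LY mice. The sum of the 10 cardiomyocyte markers, of which Tnnt2 was the most abundant, was 686022, 348894, 909368 and 554837 in AngII, 1332351, 867812, 1643352 and 2404103 in AngII+LY, 339699, 1591914, 914043 and 533538 in Ctrl and 865637 and 684108 in LY mice. At an unadjusted p under 0.05, 5 of 8 interstitial markers were lower and 6 of 10 cardiomyocyte markers higher in AngII+LY against AngII. Gnai3, Gnai1, Gnb4 and Plcb1, given further on, were lower in AngII+LY mice together with the interstitial sum. For Gnai1, Gnb4, Plcb1 and Adcy7 the highest Ctrl values were also in Ctrl 1 and Ctrl 4 and the higher LY value in LY 2. These are the mice with the highest sums of their groups. Gnai3 was higher in LY 2 and highest in Ctrl 4, but Ctrl 3 at 6619 lay above Ctrl 1 at 5652. The part of either marker list in the differences of the 47 genes was not tested.

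**Figure D2:**
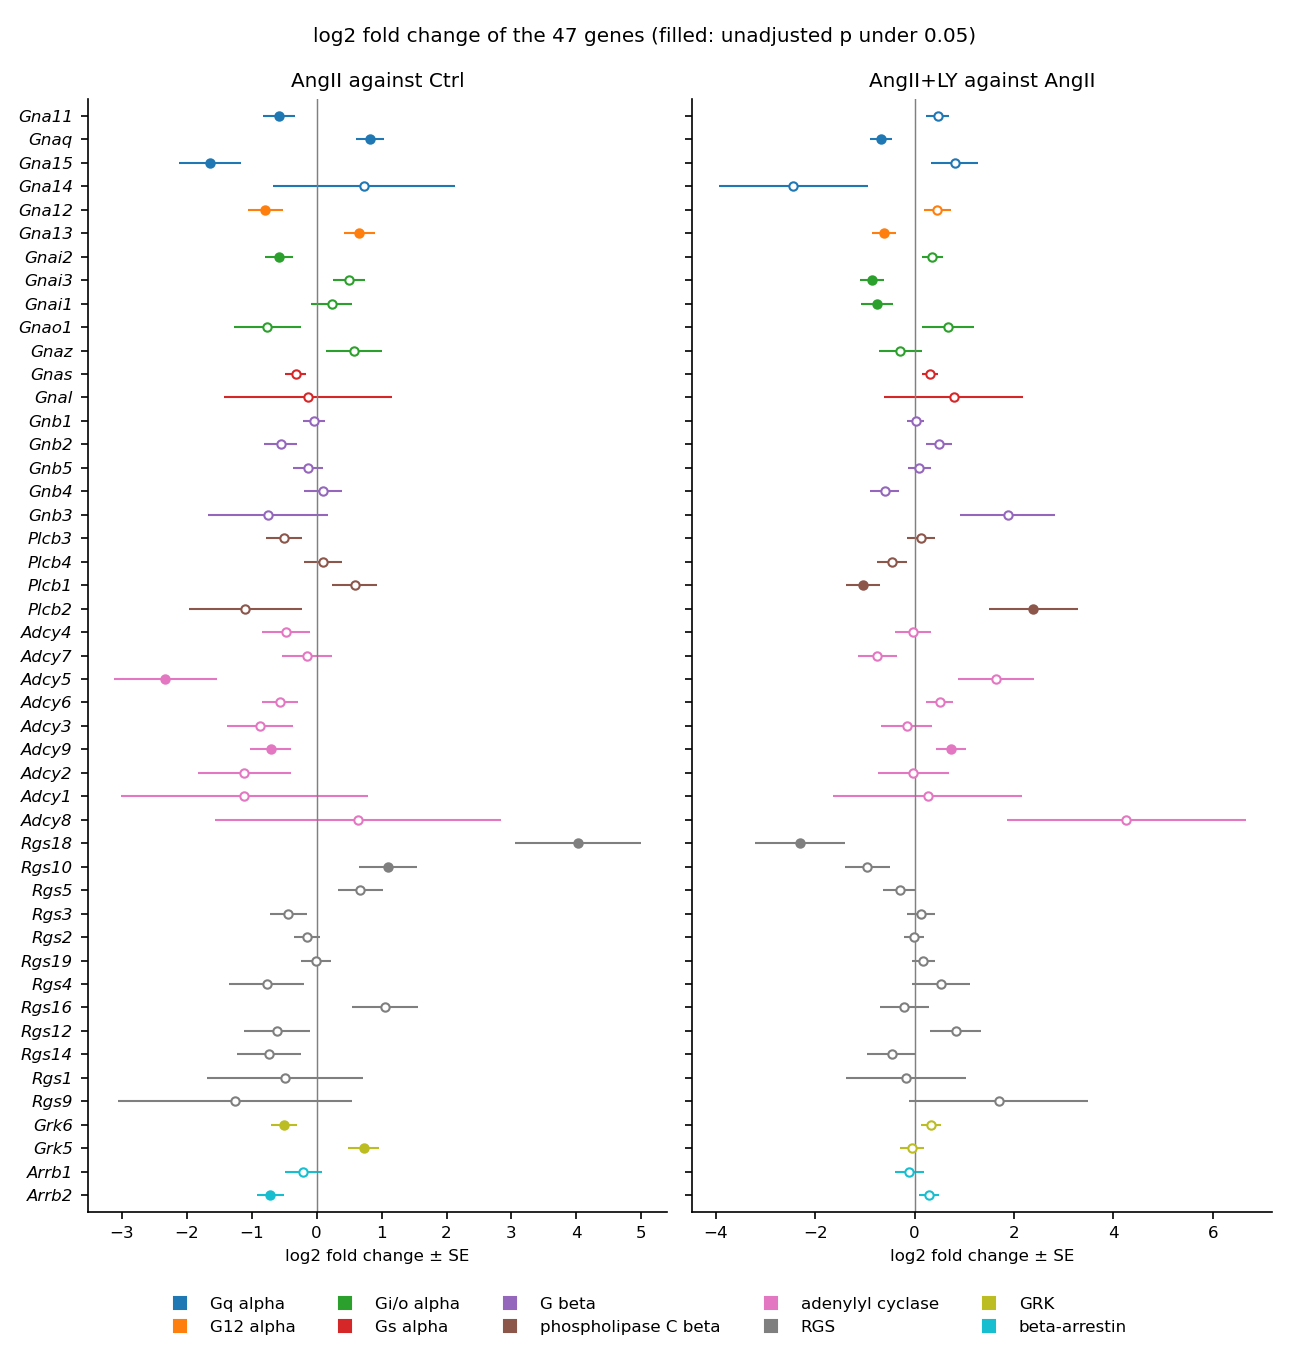
Fitted log2 fold change of each of the 47 genes with its standard error, for AngII against Ctrl (left) and AngII+LY against AngII (right), coloured by role and filled where the edgeR unadjusted p is under 0.05. In AngII against Ctrl, the Gq, G12 and GRK groups each held filled points on both sides of 0.

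Among the Gq subunits, the pair of widely expressed paralogs had log2 fold changes of opposite sign in AngII against Ctrl, of which only that of Gnaq kept its size after the correction for GC content described further on. Gnaq had 3182, 2716, 3192 and 3505 normalized counts in Ctrl 1 to 4, 4042 and 3935 in LY, 4899, 5061, 4419 and 7875 in AngII 1 to 4, and 4219, 4374, 2825 and 2528 in AngII+LY 1 to 4. All AngII mice lay above all mice of the other groups. The log2 fold change was 0.82 (SE 0.22) in AngII against Ctrl, with an edgeR adjusted p of 0.0628, and -0.67 (SE 0.22) in AngII+LY against AngII, with an adjusted p of 0.107. Each difference had an exact 2-sided permutation p of 0.0286, the smallest that 4 mice against 4 allow, and DESeq2 called both, with adjusted p of 0.007 and 0.0406. With a mouse left out, DESeq2 called the first in 8 of 8 runs and the second in 5 of 8, not without AngII 4, AngII+LY 3 or AngII+LY 4. Without AngII 4 the log2 fold changes were 0.61 and -0.46, and without the 3 libraries over 20% mitochondrial counts they were 0.66 and -0.61. Gna11 had 8332, 9098, 10279 and 8497 in Ctrl, 9153, 6146, 5414 and 3537 in AngII and 6775, 9732, 8962 and 7959 in AngII+LY mice. Only AngII 1 lay within the Ctrl range, and the log2 fold change in AngII against Ctrl was -0.58 (SE 0.24), with an edgeR adjusted p of 0.149. Without the 3 libraries it was -0.24, and after the GC correction -0.09 (SE 0.14).

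The promoters of this pair are shown because the genes encode near-equivalent subunits but had uncorrected fold changes of opposite sign, that of Gna11 coming to within its error after the GC correction. They are RefSeq promoters on GRCm38.p6, read 5′ to 3′ on the strand of the gene from 220 to 71 bases before the RefSeq start site, with the GC box GGGCGG on either strand in capitals. Gnaq lies at chr19:16132464-16132613 on the plus strand and Gna11 at chr10:81545233-81545382 on the minus strand.
Gnaq: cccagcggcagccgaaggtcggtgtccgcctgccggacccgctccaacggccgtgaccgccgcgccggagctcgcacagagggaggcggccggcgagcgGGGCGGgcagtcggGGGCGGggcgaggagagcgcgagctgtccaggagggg
Gna11: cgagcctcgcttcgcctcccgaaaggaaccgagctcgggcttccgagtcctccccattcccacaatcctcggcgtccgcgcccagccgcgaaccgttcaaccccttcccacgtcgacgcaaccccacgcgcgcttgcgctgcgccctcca
The shown stretch holds 2 GC boxes in Gnaq and 0 in Gna11, and the 300 bases from 250 before to 50 after the start hold 5 and 2. Of all 32851 such promoters, 35.7% hold at least 1 GC box, as do 30 of the 48 promoters found for 35 of the 47 genes, whose median GC content was 65.0% against 52.7% over all promoters. The 300 bases had a GC content of 75.0% in both genes, whereas the transcripts differed, with 47.3% in Gnaq and 57.3% in Gna11.

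The other Gq subunits were scarce. Gna15, which is known mainly from blood cells, had 435, 380, 234 and 131 normalized counts in Ctrl, 54.8, 87.9, 119 and 119 in AngII and 74.1, 214, 187 and 186 in AngII+LY mice. Every AngII mouse was below every Ctrl mouse (log2 fold change -1.64, SE 0.48, edgeR adjusted p 0.0746), and DESeq2 called it with an adjusted p of 0.0128, though not without Ctrl 1 or Ctrl 2. The summed macrophage markers, of which Lyz2 was the most abundant, overlapped between the groups, at 96183, 71669, 39431 and 24650 in Ctrl and 22923, 27753, 31855 and 46731 in AngII mice. They were 68519 and 44325 in LY and 28624, 32758, 37002 and 83622 in AngII+LY mice. Of the 8 macrophage markers 5 were lower in AngII at an unadjusted p under 0.05, 0 were higher and none was at 0 in any library. Adgre1 and Mrc1 instead had their highest values of the Ctrl and AngII groups in AngII mice, at 2067 in AngII 3 and 1985 in AngII 4. The part of the macrophage markers in the Gna15 difference was not tested. Gna14 ranged from 0 to 161 over the 14 mice.

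The G12 subunits, which signal to RhoA, also had log2 fold changes of opposite sign. Gna12 had 8251, 10932, 9420 and 7067 normalized counts in Ctrl, 6278, 6582, 4846 and 2932 in AngII and 4225, 6999, 8160 and 9006 in AngII+LY mice. AngII and Ctrl mice did not overlap (log2 fold change -0.79, SE 0.27, edgeR adjusted p 0.103), and DESeq2 called the difference with an adjusted p of 0.0337, and in 3 of 8 runs with a mouse left out. After the GC correction it was -0.27 (SE 0.17). The gene shares 827 exon bases with Amz1 on the opposite strand, whose reads cannot be told apart where the counting ignores strand, but Amz1 had 2712 counts in all libraries together against 104982 for Gna12. Gna13 had 3419, 2371, 2502 and 2836 in Ctrl, 3736, 5095, 5930 and 2766 in AngII and 3544, 3157, 2227 and 2505 in AngII+LY mice. AngII 4 lay within the Ctrl range and the other AngII mice above it. The log2 fold change of Gna13 was 0.66 (SE 0.24) in AngII against Ctrl, called by DESeq2 with an adjusted p of 0.0415 but not by edgeR (0.122), and -0.62 (SE 0.24) in AngII+LY against AngII, with an edgeR adjusted p of 0.155. Corrected for GC content, these were 0.50 (SE 0.24) and -0.48 (edgeR unadjusted p 0.0604 and 0.0715), and DESeq2 made its call in 3 of 8 runs with a mouse left out. Without AngII 3 the uncorrected log2 fold change in AngII against Ctrl was 0.48, with an edgeR unadjusted p of 0.0714.

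The Gi/o subunits, which inhibit adenylyl cyclase, differed among themselves. Gnai2 had 39837, 32977, 38137 and 37022 normalized counts in Ctrl, 33961, 28253, 19408 and 17388 in AngII and 29765, 38017, 33210 and 26053 in AngII+LY mice. AngII 1 lay within the Ctrl range, and AngII 3 and AngII 4, the libraries richest in mitochondrial counts, were the lowest. The log2 fold change in AngII against Ctrl was -0.58 (SE 0.22), called by DESeq2 with an adjusted p of 0.04 and not by edgeR (0.123), and it was -0.25 without the 3 libraries over 20% mitochondrial counts and -0.09 after the GC correction. DESeq2 made this call in 2 of 8 runs with a mouse left out. Gnai3 had 5652, 4988, 6619 and 8915 in Ctrl, 8518, 9531, 6859 and 12021 in AngII and 6153, 5432, 5524 and 3290 in AngII+LY mice. Every AngII+LY mouse was below every AngII mouse (log2 fold change -0.86, SE 0.25, edgeR adjusted p 0.0816), and DESeq2 called the difference with an adjusted p of 0.015. It was -0.91 without the 3 libraries and -0.34 (SE 0.21) after the GC correction, and the call held in 6 of 8 runs with a mouse left out. Gnai1 had 5918, 5535, 5721 and 5513 in AngII and 4250, 3764, 2884 and 2595 in AngII+LY mice, again without overlap (log2 fold change -0.75, SE 0.32, edgeR adjusted p 0.183), and -0.41 (SE 0.30) after the GC correction. Its Ctrl values, 6122, 2473, 3265 and 7472, covered the whole range of both groups. Gnao1, a subunit of neurons and heart, ranged from 443 in AngII+LY 3 to 3763 in AngII+LY 4 with the next highest value, 2787, in Ctrl 2. These are the mice rich in Myl7, and the part of heart muscle in their values was not tested. Gnao1 and Gnaz had unadjusted p above 0.05 in both comparisons. Gnaz, which is known from platelets and brain, was highest in AngII 4, at 1846, against 317 to 1106 in the other 13 mice.

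Gnas, the Gs alpha subunit, had 88685, 92875, 93444 and 81485 normalized counts in Ctrl, 93165 and 78910 in LY, 75755, 65839, 70345 and 73506 in AngII and 79278, 83945, 92912 and 98383 in AngII+LY mice. All AngII mice lay below all 10 others, in a narrow band. The differences were small, with a log2 fold change of -0.32 (SE 0.16) in AngII against Ctrl and 0.31 (SE 0.16) in AngII+LY against AngII, each with an exact 2-sided permutation p of 0.0286 and with edgeR adjusted p of 0.213 and 0.249. Corrected for the GC content of the transcripts, a step taken up further on, the log2 fold changes were 0.27 and -0.18, so that the direction depended on it. Gnal, the second Gs subunit, ranged from 0 to 181. It shares 1018 exon bases with Mppe1 on the opposite strand, which had 14039 counts in all libraries against 782 for Gnal, so its few counts are uncertain.

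**Figure D3:**
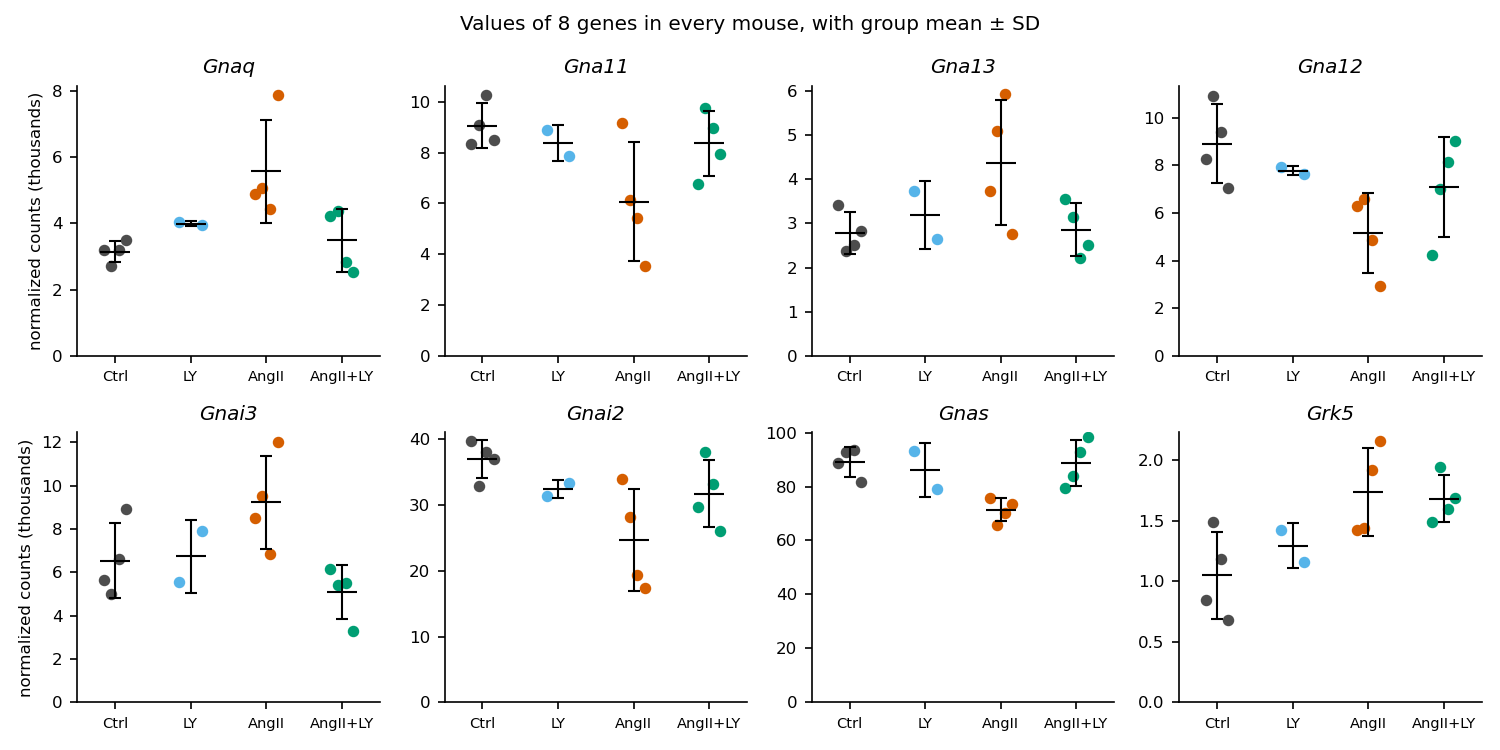
Normalized counts (in units of 1000) of 8 genes in every mouse of the 4 groups, with bars for the group mean and SD. The 4 AngII points of Gnaq lay above and those of Gnas below the points of all other mice, while the AngII points of Gna11, Gna12 and Gnai2 spread from near the Ctrl range to far below it.

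The G beta subunits had no unadjusted p under 0.05 in either comparison. Gnb1 was among the most even members, with 14520 ± 1230 (SD, n = 4) normalized counts in Ctrl, 14150 ± 574 in AngII and 14410 ± 3060 in AngII+LY mice. Gnb2 had 9513 ± 758 in Ctrl, 6476 ± 2640 in AngII and 9086 ± 1740 in AngII+LY mice. Gnb4 was lower in every AngII+LY mouse (2304 to 3041) than in every AngII mouse (3601 to 4265), with a log2 fold change of -0.61 (SE 0.30) and an edgeR adjusted p of 0.243. Corrected for GC content, it was -0.34 (SE 0.28). Gnb4 shares 5448 exon bases with Mfn1 on the opposite strand, which had more counts in all libraries (80434) than Gnb4 (48941), so its level is uncertain. Gnb5 lay between 1106 and 2124, and Gnb3 between 20.7 and 664.

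Of the phospholipase C beta isoforms, the effectors of Gq, Plcb1 had 1004, 728, 731 and 1287 normalized counts in Ctrl, 729, 1368, 1328 and 2217 in AngII and 785, 702, 754 and 507 in AngII+LY mice. AngII 1 lay within the AngII+LY range and the other AngII mice above it (log2 fold change -1.04, SE 0.35, edgeR adjusted p 0.113), and DESeq2 called the difference with an adjusted p of 0.0368, but in only 2 of 8 runs with a mouse left out, those without AngII 1 or AngII+LY 1. Plcb2, an isoform of blood cells, was higher in AngII+LY than in AngII mice by a log2 fold change of 2.39 (SE 0.90, edgeR adjusted p 0.141; DESeq2 adjusted p 0.0275). It had 52.7, 142, 125 and 66.2 in AngII and 52.2, 191, 177 and 1612 in AngII+LY mice, with AngII+LY 4 far above the others. Without that mouse the log2 fold change was 0.53, with an edgeR unadjusted p of 0.441. AngII+LY 4 is also the mouse with the most Nppa. Its summed macrophage markers were the highest of its group, at 83622 against 28624 to 37002. Its summed smooth muscle markers were 85104, next to 91457 in AngII+LY 2. The part of heart muscle, macrophages or smooth muscle in its Plcb2 value was not tested. Plcb3 had 4138 ± 709 (SD, n = 4) in Ctrl and 2920 ± 1170 in AngII mice, and Plcb4 had 3232 ± 1830 and 3469 ± 495, with unadjusted p above 0.05.

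Among the adenylyl cyclases, 8 of 9 had negative log2 fold changes in AngII against Ctrl, with a median log2 fold change of -0.71, where 52.7% of all genes were negative. Of the 9, 2 had an unadjusted p under 0.05, both lower (background 11.7% lower and 25.2% in either direction). Adcy5, with Adcy6 the main cyclase of heart muscle, had 9974, 2954, 474 and 732 normalized counts in Ctrl, 1409 and 883 in LY, 686, 669, 957 and 490 in AngII and 919, 2196, 1088 and 4529 in AngII+LY mice. The fitted log2 fold change in AngII against Ctrl was -2.33 (SE 0.79, edgeR adjusted p 0.101), and DESeq2 called it with an adjusted p of 0.0385. This call was made in 2 of 8 runs with a mouse left out. However, Ctrl 3 lay below and Ctrl 4 within the AngII range (exact 2-sided permutation test, p = 0.286). Without Ctrl 1 the log2 fold change was -0.98, with an edgeR unadjusted p of 0.133. In AngII+LY against AngII it was 1.64 (SE 0.77, edgeR adjusted p 0.227). After the GC correction 8 of the 9 were still negative in AngII against Ctrl (50.8% of all genes), with a median of -0.30. Adcy5 was at -1.71 (SE 0.77), Adcy2 at -0.92 (SE 0.70), Adcy1 at -0.82 (SE 1.87) and Adcy3 at -0.39 (SE 0.51), while Adcy4 at -0.04, Adcy6 at -0.07 and Adcy7 at -0.05 lay near 0. Adcy3 shares 2363 exon bases with Cenpo on the opposite strand, so that its counts are uncertain. Cenpo had 4333 counts in all libraries against 7606 for Adcy3.

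The mice with high Adcy5 were those with high smooth muscle markers. The sum of the 7 smooth muscle markers, of which Acta2 was the most abundant, was 445348, 70366, 11894 and 12053 in Ctrl, 10251 and 12578 in LY, 11883, 15249, 22201 and 11654 in AngII and 13227, 91457, 15008 and 85104 in AngII+LY mice. At an unadjusted p under 0.05, all 7 markers were lower in AngII against Ctrl, 2 of 7 were higher in AngII+LY against AngII, and none was at 0 in any library. The 4 highest sums were in the same 4 libraries as the 4 highest Adcy5 values, namely Ctrl 1, Ctrl 2, AngII+LY 2 and AngII+LY 4. Their part in the Adcy5 difference was not tested.

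Adcy9, a widely expressed cyclase, had 728, 556, 361 and 325 normalized counts in Ctrl, 329, 388, 207 and 281 in AngII and 479, 497, 420 and 608 in AngII+LY mice. AngII overlapped with Ctrl mice (log2 fold change -0.71, SE 0.31, edgeR adjusted p 0.177) but not with AngII+LY mice (0.73, SE 0.31, edgeR adjusted p 0.185). Corrected for GC content, these were -0.30 (SE 0.29) and 0.42, with edgeR unadjusted p of 0.321 and 0.168. Adcy4, the most abundant cyclase, ranged from 3775 to 13946, Adcy6 from 629 to 2198, Adcy3 from 148 to 1185 and Adcy2 up to 291, with unadjusted p above 0.05 in both main comparisons. Adcy7 was lower in AngII+LY (3255 ± 783, SD, n = 4) than in Ctrl mice (6075 ± 2800), by a log2 fold change of -0.90 (SE 0.39, edgeR adjusted p 0.407), and of -0.65 without Ctrl 1, with an edgeR unadjusted p of 0.124. Its Ctrl values of 8940, 3988, 3376 and 7995 overlapped with 3305, 4225, 3179 and 2311 in AngII+LY mice, and it shares 1505 exon bases with Brd7 on the opposite strand, so that its counts are uncertain. Adcy8 had 220 normalized counts in AngII+LY 4 and at most 10.3 in any other mouse.

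Of the 12 RGS genes, 4 had positive and 8 negative log2 fold changes in AngII against Ctrl, where 52.7% of all genes were negative. The 2 with an unadjusted p under 0.05 were positive, where the background was 13.4% higher and 25.2% in either direction. Rgs18, which is known from platelets and megakaryocytes and acts on Gi and Gq subunits, had 1480, 403, 400 and 986 normalized counts in Ctrl, 3538 and 1053 in LY, 2547, 1497, 4399 and 44865 in AngII and 3603, 1931, 1918 and 3292 in AngII+LY mice. Every AngII and AngII+LY mouse was above every Ctrl mouse, and AngII 4 was over 10 times as high as any other mouse. The log2 fold change in AngII against Ctrl was 4.02 (SE 0.97), with an edgeR adjusted p of 0.0583, a DESeq2 adjusted p of 0.000974 and an exact 2-sided permutation p of 0.0286. The DESeq2 call was lost without AngII 3, where the edgeR log2 fold change was 4.32 (SE 0.99). Without AngII 4 the log2 fold change was 1.78, with an edgeR unadjusted p of 0.00563, and without the 3 libraries over 20% mitochondrial counts it was 1.3, with one of 0.0495. For AngII+LY against AngII the log2 fold change was -2.31 (SE 0.90, edgeR adjusted p 0.154), and -0.07 without AngII 4. For Rgs10, an RGS protein of immune cells and platelets, the AngII values were 2493, 2103, 3223 and 11541 and the Ctrl values 3141, 2237, 1849 and 1795 (log2 fold change 1.10, SE 0.45, edgeR adjusted p 0.152). AngII 1 and 2 lay within the Ctrl range and AngII 3 just above it, and without AngII 4 the log2 fold change was 0.21, with an edgeR unadjusted p of 0.434. After the GC correction of all libraries the log2 fold change of Rgs10 was 1.91 (SE 0.58) in AngII against Ctrl and -1.65 (SE 0.57) in AngII+LY against AngII, and that of Rgs18 was 2.54 (SE 0.77) and -1.13.

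AngII 4 was also the library with the most platelet marker counts. The sum of the 6 platelet markers, of which Ppbp was the most abundant, was 35434, 12517, 11573 and 16989 in Ctrl, 58425 and 18041 in LY, 28822, 17075, 25366 and 191718 in AngII and 27682, 22137, 29893 and 40036 in AngII+LY mice. Of these markers 2 of 6 were higher in AngII than in Ctrl mice at an unadjusted p under 0.05 and 1 of 6 was lower in AngII+LY against AngII. Gp1bb was at 0 in Ctrl 3 and AngII+LY 2, and the other 5 had counts in every library. Their part in the Rgs18 and Rgs10 values was not tested.

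**Figure D4:**
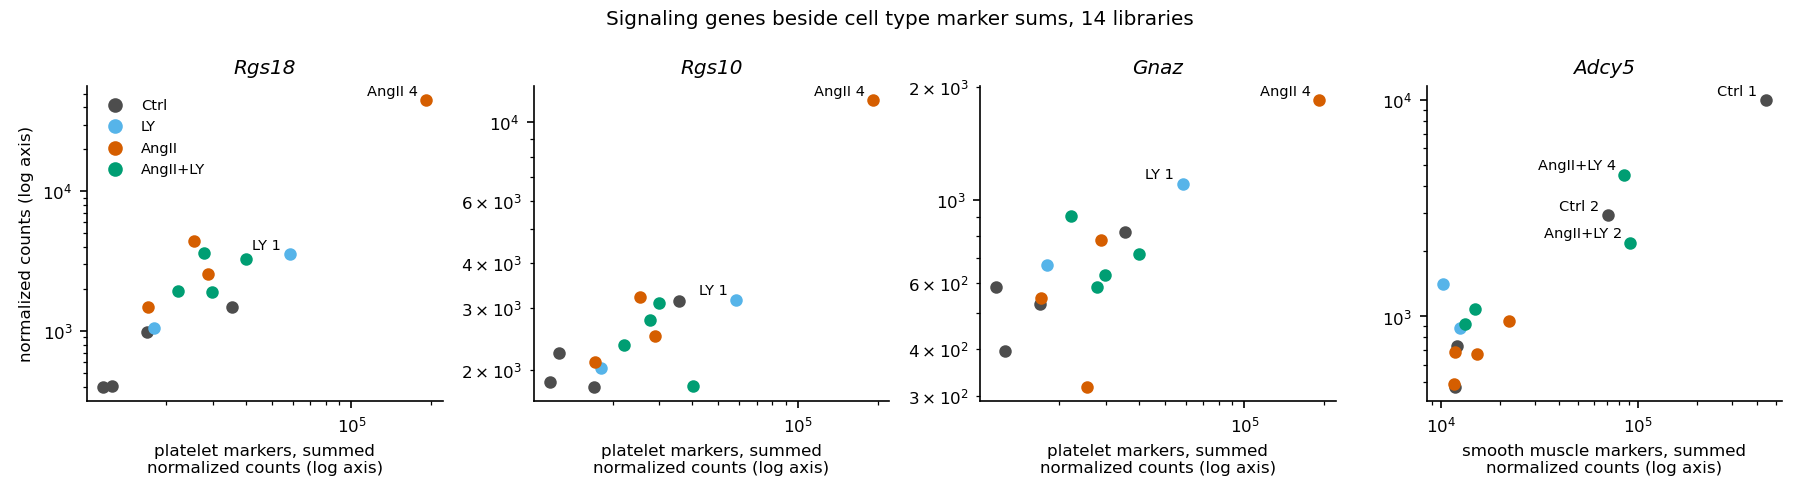
Normalized counts of Rgs18, Rgs10 and Gnaz against the summed normalized counts of 6 platelet markers, and of Adcy5 against those of 7 smooth muscle markers, in the 14 libraries on log axes. AngII 4 stood at the top right for the 3 genes on the left, and Ctrl 1, Ctrl 2, AngII+LY 2 and AngII+LY 4 did so for Adcy5.

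The other RGS genes showed smaller or more scattered differences. Rgs5, a marker of pericytes, was at 5957 ± 1430 (SD, n = 4) in Ctrl, 9514 ± 4910 in AngII and 7716 ± 1190 in AngII+LY mice. Rgs2, which acts on Gq, was at 1755 ± 415, 1586 ± 133 and 1576 ± 265 in these groups, and Rgs19 at 1281 ± 278, 1269 ± 21.4 and 1434 ± 451. Rgs19 shares 449 exon bases with Tcea2 on the opposite strand, which had 7796 counts in all libraries against 17766 for Rgs19. Rgs16 had 300.3 ± 118 in Ctrl and 622.5 ± 343 in AngII mice, Rgs4 had 995.7 ± 874 and 586 ± 174, and Rgs3 had 6863 ± 2000 and 5081 ± 1780, each with an unadjusted p above 0.05. After the GC correction Rgs2 had a log2 fold change of -0.58 (SE 0.20, edgeR unadjusted p 0.0111) and Rgs16 one of 1.48 (SE 0.54, edgeR unadjusted p 0.0164) in AngII against Ctrl. Rgs14 was lower in AngII+LY mice (38.4, 199, 135 and 90) than in Ctrl mice (403, 231, 253 and 173), with an overlap of 1 mouse and a log2 fold change of -1.19 (SE 0.50, edgeR adjusted p 0.397). Without Ctrl 1 it was -0.92, with an edgeR unadjusted p of 0.106. Rgs1 and Rgs9 had at most 166 and 43.8 normalized counts in any mouse, and Rgs12 ranged from 358 to 3046 in AngII+LY 4, with 2518 in Ctrl 2.

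Among the kinases and arrestins that switch off receptors, Grk5 was the one that kept an edgeR unadjusted p under 0.05 for AngII against Ctrl after the GC correction. Grk5 had 842, 1489, 1186 and 682 normalized counts in Ctrl, 1426 and 1162 in LY, 1425, 1440, 1921 and 2154 in AngII and 1493, 1945, 1600 and 1689 in AngII+LY mice. Ctrl 2 reached into the AngII range, and every AngII+LY mouse was above every Ctrl mouse. The log2 fold change was 0.72 (SE 0.24, edgeR adjusted p 0.0979) in AngII against Ctrl, called by DESeq2 with an adjusted p of 0.0298 (and in 3 of 8 runs with a mouse left out), and 0.68 (SE 0.24, edgeR adjusted p 0.334) in AngII+LY against Ctrl. For AngII+LY against AngII it was -0.04 (SE 0.24). Grk6 had 2377, 2511, 3368 and 2410 in Ctrl and 2342, 2325, 1313 and 1539 in AngII mice, without overlap but with AngII 1 and 2 close to the Ctrl range (log2 fold change -0.50, SE 0.20, edgeR adjusted p 0.145). The sign turned after the GC correction, to 0.03 (SE 0.16). Arrb2, beta-arrestin 2, had 2441, 2233, 2492 and 1784 in Ctrl, 1376, 1759, 1088 and 1241 in AngII and 1416, 2237, 1790 and 1238 in AngII+LY mice. AngII and Ctrl mice did not overlap (log2 fold change -0.71, SE 0.21, edgeR adjusted p 0.081), and DESeq2 called the difference with an adjusted p of 0.0209, though not without AngII 3, AngII 4, Ctrl 1, Ctrl 2 or Ctrl 3. After the GC correction it was -0.23 (SE 0.18). Arrb1 had 5778 ± 1600 (SD, n = 4) in Ctrl and 5018 ± 1340 in AngII mice, a difference within the spread.

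The direction of the differences went with the GC content of the transcripts. In AngII against Ctrl, the 5 genes that were higher at an unadjusted p under 0.05 had a median GC content of 47.3% and the 8 that were lower one of 57.2%, where the median of all genes was 49.7%. Genes are not independent replicates, so the rank correlation is only a description. Spearman's rho between log2 fold change and GC content was -0.567 over 19043 genes and -0.501 over the 47. The values were 0.456 and 0.505 for AngII+LY against AngII, which shares the AngII libraries. For AngII+LY against Ctrl they were -0.16 and -0.0114. With each library corrected for GC content, the same test gave 9 of the 47 genes at an unadjusted p under 0.05 in AngII against Ctrl (12.3% of all genes), 6 higher and 3 lower. Of these, 6 were among the 13 without the correction (Gnaq, Grk5, Rgs18, Rgs10, Gna15 and Adcy5) and 3 were not (Rgs16, Gnaz and Rgs2), and Gnaz had a log2 fold change of 1.12 (SE 0.48). Gnaz was at 1846 normalized counts in AngII 4 and at 317 to 780 in the other AngII mice. Without AngII 4 the uncorrected log2 fold change of Rgs10 was 0.21, and the correction was not repeated without that library. In AngII+LY against AngII the corrected test gave 4 of the 47 at an unadjusted p under 0.05 (15.3% of all genes), of which Gnaq, Plcb1 and Plcb2 were among the 8 without the correction and Rgs10 was not. Gnaq kept log2 fold changes of 0.64 (SE 0.19) and -0.51 (SE 0.19) in these comparisons, with edgeR unadjusted p of 0.00404 and 0.0168, and Grk5 one of 0.59 (SE 0.22) in the first. Gna15 stayed at -1.13 (SE 0.47) and Adcy5 at -1.71 (SE 0.77). Adcy9, Arrb2, Gna11, Gna12, Gna13, Gnai2 and Grk6 in AngII against Ctrl, and Adcy9, Gna13, Gnai1, Gnai3 and Rgs18 in AngII+LY against AngII, had unadjusted p above 0.05 after the correction. The cause of the relation with GC content was not tested.

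With each mouse of the compared groups left out in turn, the edgeR unadjusted p stayed under 0.05 in every run for Arrb2, Gna12, Gna15, Gnaq, Grk5 and Rgs18 in AngII against Ctrl, for Gnai3, Gnaq and Plcb1 in AngII+LY against AngII and for Grk5 in AngII+LY against Ctrl. It passed 0.05 in at least 1 run for the other genes given in full, namely Adcy5, Gna11, Gna13, Gnai2, Grk6 and Rgs10 in the first comparison, Adcy9, Gna13, Gnai1, Plcb2 and Rgs18 in the second and Adcy7 and Rgs14 in the last.

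**Figure D5:**
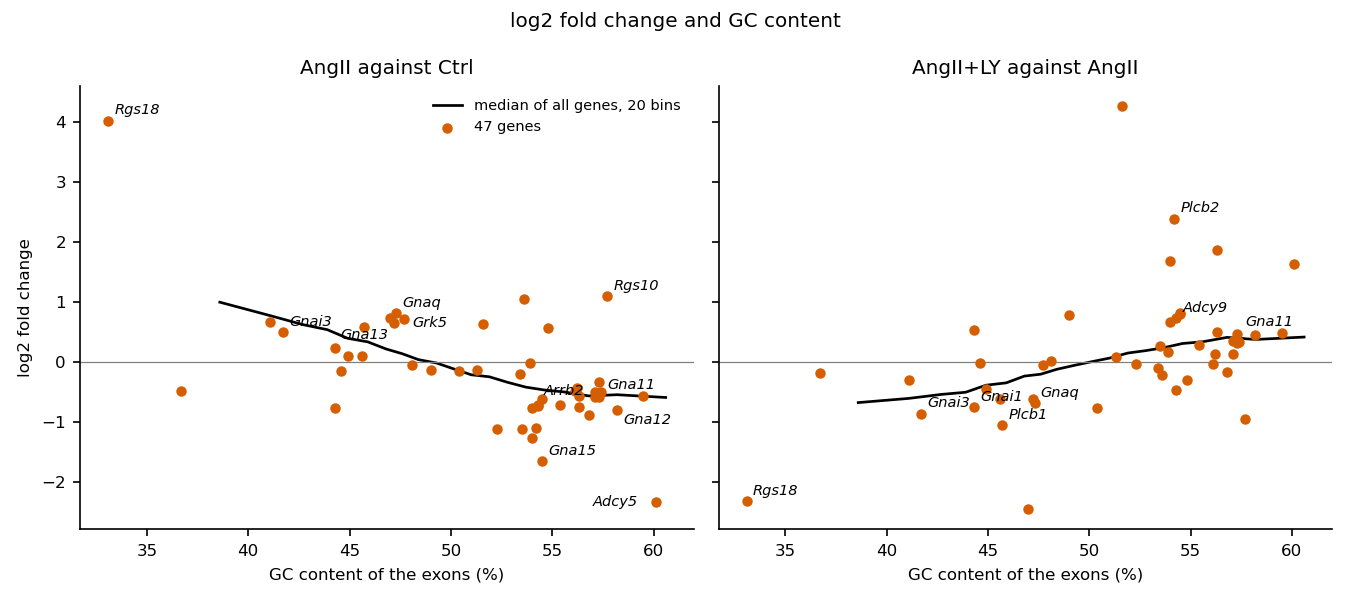
Log2 fold change against the GC content of the transcripts (%, where the axis names the exons) for the 47 genes (points) and the median of all genes in 20 bins of GC content (line). Gna11 and Gna12 lay near the line and Gnaq off it in both comparisons, while Rgs18 and Rgs10 lay above it in AngII against Ctrl.

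In AngII+LY against Ctrl mice, 3 of 47 genes had an unadjusted p under 0.05 (6.38%, background 11.0%), namely Grk5, Rgs14 and Adcy7 above, and edgeR called 0 (0.0% of all genes). DESeq2 called 0 of 45 (background 2.0%). In LY against Ctrl mice, 0 of 47 had an unadjusted p under 0.05 (background 1.39%), edgeR called 0 (0.0% of all genes) and DESeq2 called 0 of 46 (background 0.111%). With 2 LY mice the smallest exact 2-sided permutation p is 0.0667, so that no gene could pass 0.05 in that test. For Gnaq the log2 fold change in LY against Ctrl was 0.34 (SE 0.27). A test of whether the LY difference was another in AngII-infused than in other mice, added after the values had been seen, called 0 genes (smallest adjusted p 0.295). At an unadjusted p under 0.05 it gave 9 of the 47 and 13.3% of all genes. The smallest p of the 47 was that of Gnaq, whose LY difference was lower by 1.01 on the log2 scale with AngII than without (SE 0.34, edgeR adjusted p 0.295).

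Genes around the 47 in the same pathways were read from lists of related genes. Their values are given without the GC correction. Among the 47, that correction took 7 of 13 genes above an edgeR unadjusted p of 0.05 in AngII against Ctrl. At the receptors, Agtr1a, the main AT1 gene of the mouse, had 195.2, 396.5, 384.6 and 223.9 normalized counts in Ctrl and 448.7, 417.5, 490.3 and 440.1 in AngII mice. The groups did not overlap (log2 fold change 0.58, SE 0.31, edgeR adjusted p 0.252). Agtr1b had no counts in any library. Of the 12 angiotensin and serotonin receptor genes 5 passed the filter on low counts, and 0 of these had an unadjusted p under 0.05 in AngII against Ctrl or in AngII+LY against AngII. Htr2b, the receptor that LY272015 blocks, lay between 0 and 140.4 in the 14 mice. Htr1b was at 596.9 in Ctrl 1 and at most 131.4 in the others, with a log2 fold change of -5.01 (SE 2.3) in AngII against Ctrl that was -1.87 (SE 2.2) without Ctrl 1.

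Of the 10 G gamma subunits tested, 4 had an unadjusted p under 0.05 in AngII against Ctrl, 2 higher (background 13.4%) and 2 lower (background 11.7%). Gng5 was higher by a log2 fold change of 1.03 (SE 0.23, edgeR adjusted p 0.0574) and Gng11 by 1.75 (SE 0.44, edgeR adjusted p 0.0587), and neither overlapped between the groups. Gng11 was at 128700 in AngII 4, the library with the most platelet marker counts, and between 22630 and 38040 in the other AngII mice. Without AngII 4 the log2 fold change was 0.91 (SE 0.23) for Gng11 and 0.80 (SE 0.20) for Gng5. Gng11 was lower in AngII+LY against AngII by 1.32 on the log2 scale (SE 0.43), the only one of 10 with an unadjusted p under 0.05 (background 22.5%), and without AngII 4 its log2 fold change was -0.48 (SE 0.23, edgeR unadjusted p 0.0594).

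Downstream of phospholipase C, 4 of 19 genes for inositol trisphosphate receptors, protein kinase C and calcineurin had an unadjusted p under 0.05 in AngII against Ctrl, 3 higher and 1 lower, and 2 of 19 in AngII+LY against AngII, both lower. Neither count exceeded its background of 25.2% and 22.5%. Prkca, protein kinase C alpha, was at 930.4 in Ctrl, 1833 in AngII and 1245 in AngII+LY mice on average. Its log2 fold change was 0.98 (SE 0.20, edgeR adjusted p 0.0573) in AngII against Ctrl, without overlap, and -0.56 (SE 0.20, edgeR adjusted p 0.123) in AngII+LY against AngII. Ppp3cb, a calcineurin subunit, followed in the first comparison (0.81, SE 0.28) and Itpr1, an inositol trisphosphate receptor, in the second (-0.57, SE 0.23).

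Downstream of adenylyl cyclase, 8 of 19 genes of cyclic AMP and protein kinase A signaling had an unadjusted p under 0.05 in AngII against Ctrl, 5 higher and 3 lower (background 25.2%), and 5 of 19 in AngII+LY against AngII, 1 higher and 4 lower (background 22.5%). Crem, a transcription factor that responds to cyclic AMP, had log2 fold changes of 0.70 (SE 0.18, edgeR adjusted p 0.0617) and -0.56 (SE 0.18, edgeR adjusted p 0.11). Pde4b, a phosphodiesterase that degrades cyclic AMP, was lower in every AngII than in every Ctrl mouse (-0.54, SE 0.18), and it was as low against Ctrl in LY (-0.54, SE 0.23) and AngII+LY mice (-0.56, SE 0.18). Creb1, a transcription factor activated by cyclic AMP, was lower in every AngII+LY than in every AngII mouse (-0.76, SE 0.27).

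Among G protein chaperones and exchange factors, 2 of 8 had an unadjusted p under 0.05 in AngII against Ctrl (background 25.2%), Arhgef12 (0.50, SE 0.18) and Arhgef1 (-0.67, SE 0.30), which act between G12 subunits and RhoA. In the other comparison, AngII+LY against AngII, it was 1 of 8 (background 22.5%), Gpsm3 (0.72, SE 0.33). Of 4 other receptor kinases and arrestins, 1 had an unadjusted p under 0.05 in each comparison (background 25.2% and 22.5%). This was Grk2, with a log2 fold change of -0.60 (SE 0.24) in the first and 0.56 (SE 0.24) in the second. Of 8 other RGS genes, 0 had an unadjusted p under 0.05 in these comparisons, and Rgs6 had the values -1.72 (SE 0.86) and 1.61 (SE 0.86). These were -0.69 (SE 0.80) without Ctrl 2, at 1919 against 364.4 to 381.4 in the other Ctrl mice, and -0.09 (SE 0.66) without AngII+LY 4, at 2148 against 48.53 to 300.7.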

How the data were processed

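Aortic valve leaflets of 14 mice were sequenced in bulk. The authors checked the reads with FastQC (0.12.1), trimmed them, used HISAT2 for alignment to GRCm39 and featureCounts for the counts per gene, whose strand setting is not given in the sources used here. The deposited table is named as normalized, but its values are whole numbers with unequal library totals and were used as raw counts. Low counts were more often even than odd (60.8% of counts from 1 to 20). Whether both mates of a read pair were counted is not given in the sources used here, so a count may exceed the number of fragments. Genes were named by GENCODE vM39, where 618 genes with 0.0361% of the counts had no match. Exon length is that of the merged exons. GC content is that of all annotated transcripts of a gene pooled, so that an exon counts once for each transcript that holds it.

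Genes whose mean count was 10 or more were tested with edgeR 4.0.16 (R 4.3.3), TMM normalization, 1 quasi-likelihood fit of all 4 groups (common dispersion 0.353), Benjamini-Hochberg adjustment over all 19145 genes, and a call at an adjusted p under 0.05 with an absolute log2 fold change above 0.5. SE is the log2 fold change over the root of F. Single genes were compared by exact permutation of log2(normalized count + 1), which allows no p below 0.0286 for 4 mice against 4. Alternatives were DESeq2 1.42.0, other size factors, no filter, other quasi-likelihood options, a fit of the compared groups alone, a block by replicate number, loess correction for GC content (span 0.3), and leaving out mice. The pipeline was run on simulated counts with a smaller dispersion than these data and no GC trend between groups. That run does not give its error rates for these data. In the smallest library 3 counts are 1.43e-05% of its counts, a floor that covers counting error only.

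The 47 genes and the lists were chosen with earlier results of these data known. Genes given in full had an edgeR unadjusted p under 0.05, at most 12 in AngII against Ctrl and in AngII+LY against AngII, and 5 in the others. The gene of highest level in each role, and genes counted in under 50% of the libraries, are also named. Others named singly, such as Gnas, Gnb4, Gnaz and the genes of the pathway lists, were chosen after their values were seen.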

Additional observations from a re-analysis of the deposited data

Results flagged for a closer look

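In 57 groups of 4 mice, from the 19 of the 47 genes given in full, the distance of the highest or lowest mouse from its nearest neighbour was set against the range of the group, on the scale of log2(normalized count + 1). It exceeded Dixon's 95% critical value in 2 groups, where chance gives about 1 in 20. For Gna15 the share of the range was 0.865 in AngII+LY 1, the lowest of its group at 74.1 normalized counts against 186 to 214. For Grk6 it was 0.843 in Ctrl 3, the highest of its group at 3368 against 2377 to 2511. Without the log, 4 groups exceeded it, namely Rgs18 (0.933) and Rgs10 (0.881) in AngII 4, Plcb2 in AngII+LY 4 (0.911) and Grk6 in Ctrl 3 (0.865), and Gna15 did not.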

How the results depend on the processing

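The log2 fold changes of the 23 gene results given in full kept their direction in 457 of 460 repeats. The exceptions were Grk6 in AngII against Ctrl, at 0.0253 after the GC correction and 0.0236 with GC correction and replicate block, and Rgs18 in AngII+LY against AngII, at 0.254 without the 3 libraries over 20% mitochondrial counts, a choice made after seeing the data. Shares in parentheses are those of all genes in the same setting. In AngII against Ctrl, where 13 of the 47 genes had an unadjusted p under 0.05 (25.2%), this number was 6 with GC correction and replicate block (10.2%), 5 without those 3 libraries (9.63%), 7 without Ctrl 1 and AngII 4 together (12.9%, also chosen after seeing the data), and 8 to 17 with a mouse left out (16.6 to 29.6%). The number called was 9 by DESeq2 (of 2663 genes called), 1 without the filter (of 123), 1 with the bias-adjusted quasi-dispersion (of 555, chosen after seeing the data) and 0 to 4 with a mouse left out (of 0 to 1726). In AngII+LY against AngII the 8 at an unadjusted p under 0.05 (22.5%) became 13 without the filter (16.7%), 4 after the GC correction (15.3%), 1 with GC correction and replicate block (2480 of 19145 genes) and 5 to 13 with a mouse left out (16.6 to 25.4%), and DESeq2 called 4 (of 2082). In AngII+LY against Ctrl the 3 (11.0%) became 6 without the filter (9.58%), 5 with only the groups compared in the fit (12.6%) and 2 to 5 with a mouse left out (7.62 to 13.4%). In LY against Ctrl the 0 (1.39%) became 2 by DESeq2 (2.24%) or without the filter (1.94%), 1 with only the groups compared (3.49%), the replicate block (2.02%), the GC correction (1.51%), the bias-adjusted quasi-dispersion (2.53%), or without either set of libraries (2.48 and 1.55%), and 0 to 2 with a mouse left out (0.59 to 2.0%). The planned legacy setting of edgeR was the one already in use. Causes were not tested, except that leaving out libraries leaves fewer mice. The mice share only a number: same-numbered mice of different groups had correlations of deviations from -0.128 to 0.09 over 18 pairs, against -0.105 to 0.196 for other pairs. Adcy8, Rgs9, Adcy1, Gnal, Rgs1 and Gna14 had no counts in some libraries, and their values are imprecise.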

Other observations

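The remaining marker lists gave these counts at an edgeR unadjusted p under 0.05. Of 8 adipocyte markers, 5 were lower in AngII against Ctrl and 2 higher in AngII+LY against AngII. Of 7 lymphocyte markers, 2 were lower in the first and 1 higher in the second of these comparisons, and of 6 pericyte markers 1 was lower and 1 higher. Of 8 valve endothelial markers, 1 was higher in the first and 1 lower in the second. Over all genes, 13.4% were higher and 11.7% lower in the first comparison, and 10.1% and 12.4% in the second. For 5 erythroid, 5 melanocyte and 5 tested neuron and Schwann cell markers the number was 0 in both.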
